A study of Drosophila melanogaster with 4 samples.

Results

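The ecdysone early genes Eip75B, Eip74EF and br were described through 3 fixed windows on FlyBase release 5 of the Drosophila melanogaster genome, set beside lists of regions enriched for histone H3 monomethylated at lysine 27 (H3K27me1). The Eip75B window was 3L from 17950000 to 18070000 (120 kb), the Eip74EF window was 3L from 17555000 to 17620000 (65 kb), and the br window was X from 1455000 to 1570000 (115 kb). These windows were chosen by their genes, with the H3K27me1 coverage of the same lists already known, so their coverage is given as a description and carries no test. Together they held 38 of the 8209 regions of replicate 1, 31 of the 6901 regions of replicate 2 and 30 of the 12359 regions of a further list deposited for the whole series. The further list belongs to no single sample. It is not independent of the replicates, and its agreement with them is no added support. The chromatin came from instar 3 larvae of Oregon-R, a wild-type strain, and was precipitated with a rabbit polyclonal antibody from Millipore raised against a synthetic H3 peptide. The series has 2 ChIP samples, labelled as replicates without saying whether the larvae were collected separately, and 2 input samples of DNA that was not precipitated, for which no file was analysed here. The labels give neither the hours of the larvae within the instar nor a dissected tissue, so all cell types and both sides of a hormone pulse may be mixed in each sample.

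Ecdysone is the steroid hormone that triggers moulting and metamorphosis. It binds a receptor pair made of EcR and Ultraspiracle, which switches on a small set of early genes, first recognised as puffs on the giant chromosomes of the larval salivary gland. Eip75B encodes a nuclear receptor that binds heme, Eip74EF an ETS-domain transcription factor, and br, known as Broad, a family of zinc-finger transcription factors made by alternative splicing. Their products in turn control the later genes of the response. H3K27me1 is a methylation state of the residue whose trimethylated form marks Polycomb-repressed chromatin, and in mouse embryonic stem cells the monomethylated form is found over the bodies of transcribed genes. No transcript was measured in these samples.

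Nothing in the lists ties a window to its gene, and gene positions on release 5 were not in the sources used here. The RefSeq gene table at hand is on release 6, and all 3 symbols were found in it. Read as plain numbers, the release 6 spans of Eip75B and Eip74EF fall inside their windows, whereas that of br lies past the end of its window. A comparison of numbers across builds cannot tell which build each window was set to. Where the ends of each gene lie within its window was not settled. In the gene order of that table, 4 smaller genes lie within the span of Eip75B (CG32192, CG42393 and 2 long noncoding RNAs), none within Eip74EF or br, and Mur2B overlaps br. All values therefore belong to the windows and cannot be assigned to one gene inside them.

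H3K27me1 regions covered 48.8% to 81.1% of the bases of the 3 windows in the replicates, and Eip75B had the highest share in both. The Eip75B window was covered over 74.8% of its bases in replicate 1 and 81.1% in replicate 2, a mean of 77.9% ± 4.4 (SD, n = 2), or 93.5 kb. The Eip74EF window was covered over 61.0% and 53.0%, a mean of 57.0% ± 5.6, or 37.03 kb. The br window was covered over 67.9% and 48.8%, a mean of 58.4% ± 13.5, or 67.1 kb. In both replicates Eip75B lay above the other windows, while br was above Eip74EF in replicate 1 and below it in replicate 2, so the order of br and Eip74EF was not resolved. In the whole-series list the covered shares were 85.6%, 74.6% and 74.8% in the order Eip75B, Eip74EF and br. By comparison, 19.4% ± 2.8 of arm 3L and 21.1% ± 3.7 of X was covered. The covered share of the window was 4.08 ± 0.82 times that of its arm for Eip75B, 2.95 ± 0.14 times for Eip74EF and 2.75 ± 0.16 times for br.

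**Figure D1:**
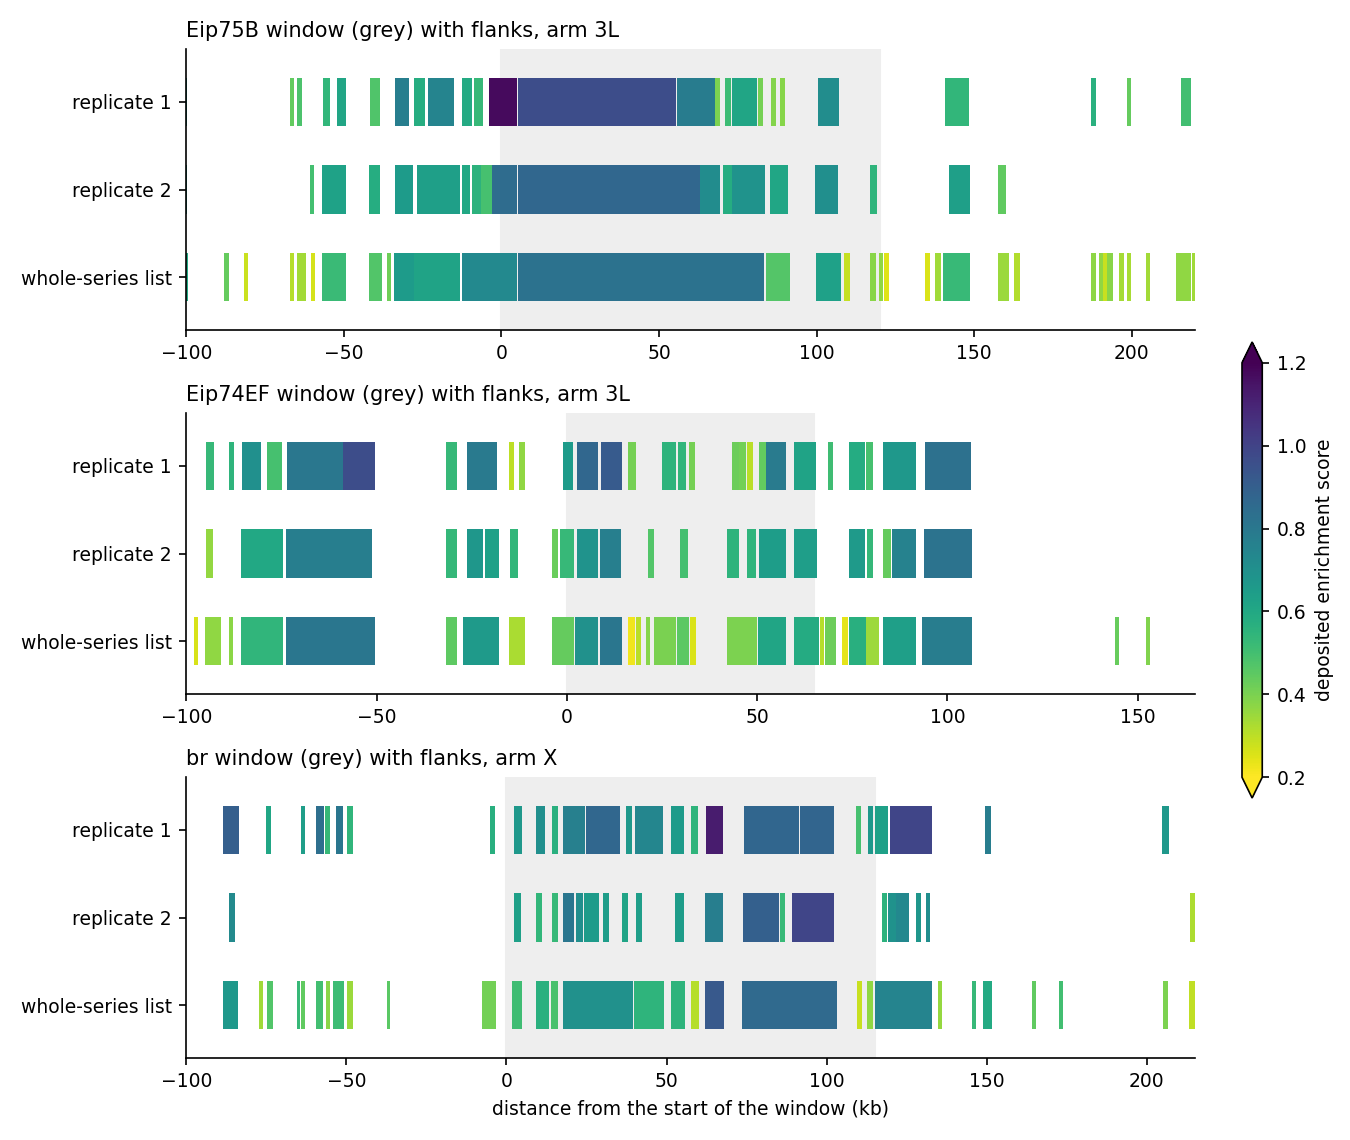
H3K27me1 regions in each window (grey) and its flanks of 100 kb, plotted as distance from the start of the window in kb, with 1 row for each list and the colour giving the deposited enrichment score. The Eip75B window is filled by a few joined regions on its left and by separate ones on its right. Eip74EF and br hold many separate regions. The block at Eip75B runs on past the left edge of its window, and further regions lie just past the right edge of the br window.

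The flanks separated the members from one another. Around Eip75B the left flank of 100 kb was covered over 37.0% and 43.4% in the replicates and the right flank over 13.6% and 9.33%. The window exceeded the mean of its flanks by 49.5 percentage points in replicate 1 and 54.7 in replicate 2, a mean of 52.1 ± 3.7 (SD, n = 2). Around br the left flank was covered over 17.7% in replicate 1 and 2.11% in replicate 2, and the right flank over 21.5% and 12.4%. The br window exceeded its flanks by 48.3 and 41.6 points, a mean of 45.0 ± 4.8. Although the replicates differed in how much of br they marked, the step from the flanks to the window was of similar size in both.

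Eip74EF did not stand apart from its surroundings in the same way. Its left flank was covered over 50.7% and 51.5%, against 61.0% and 53.0% in the window, and its right flank over 28.6% and 27.4%. The excess over the flanks was 21.3 points in replicate 1 and 13.5 in replicate 2, a mean of 17.4 ± 5.5. It shrank to 5.51 ± 0.66 points when the window was moved 10 kb to the left. After a move of 10 kb to the right it was 5.65 ± 7.97 points, with a spread larger than the mean. With the window narrowed by 10 kb on each side it was -0.54 ± 8.5 points, so the excess rested on the outer parts of the window. The stretch of 330 kb between the Eip74EF and Eip75B windows was covered over 25.2% in replicate 1 and 25.4% in replicate 2, below both windows.

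**Figure D2:**
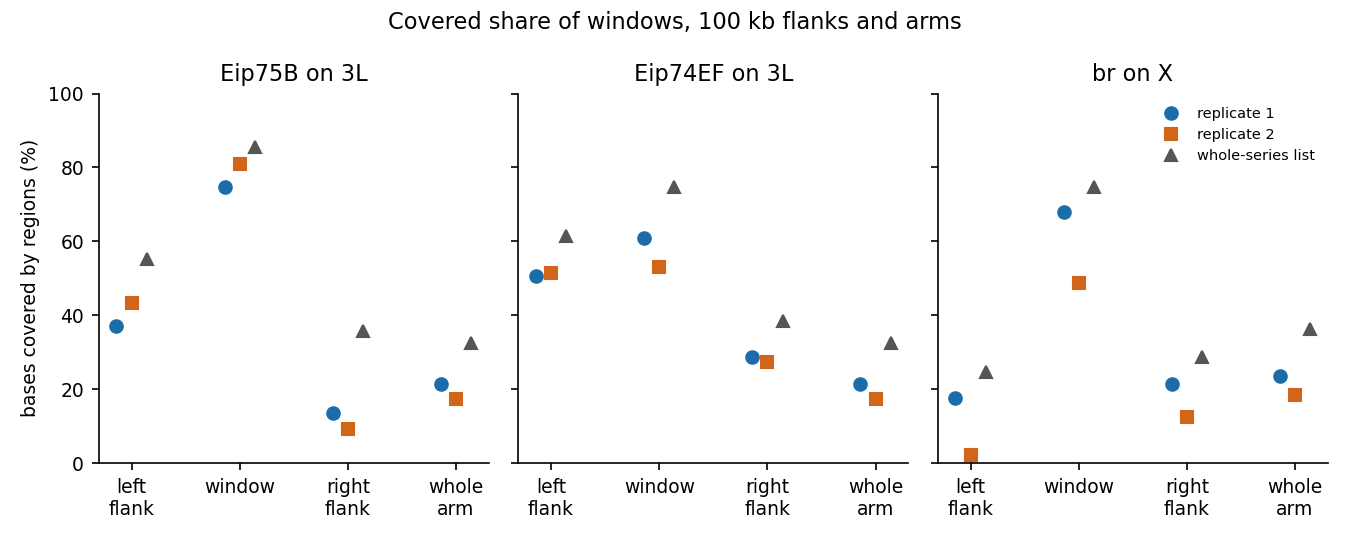
Share of bases covered by H3K27me1 regions (%) in each window, in the 100 kb on its left and right and on the whole chromosome arm, with 1 point for each list. The window points of all 3 members lie above both flanks in all 3 lists. The left flank of Eip74EF comes nearest to its window. It has 50.7% against 61.0% in replicate 1, 51.5% against 53.0% in replicate 2 and 61.4% against 74.6% in the whole-series list.

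Each window was then ranked among all windows of its own length along its arm, taken every 1 kb. For Eip75B, 99.7% of 24424 windows on 3L were covered less in each replicate. The 65 windows covered as much or more were in both replicates windows that overlapped the Eip75B window itself. The most covered 120 kb of all 3L was in both replicates the stretch from 17917001 to 18037001, which starts 33.0 kb to the left of the window and was covered over 88.6% in replicate 1 and 95.1% in replicate 2. In the whole-series list the same stretch was again the most covered, at 98.7%, but 2 other places on 3L also reached the level of the Eip75B window, the higher from 22281001 to 22401001 at 88.4%.

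For br, 99.5% of 22308 windows on X were covered less in replicate 1 and 97.0% in replicate 2. Separate places on X at or above the br window numbered 3 in replicate 1 and 14 in replicate 2. The most covered of these was the same in all 3 lists, from 3238001 to 3353001, with 88.0%, 92.1% and 96.1% of its bases inside regions. For Eip74EF, 96.3% of 24479 windows on 3L were covered less in replicate 1 and 95.5% in replicate 2, with 31 and 33 separate places at or above it. Among those places the most covered lay in the Eip75B block.

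All 3 members thus fell in the top 5% of their arm in both replicates with the windows as given. For Eip74EF this rested on the placing of the window and on its lower-scoring regions. Averaged over the replicates, its percentile was 91.3 with the window moved 10 kb to the left, 90.4 moved 10 kb to the right, 92.7 widened and 87.6 narrowed by 10 kb on each side, and 90.6 with only the higher-scoring regions of each list. Under the same alternatives the mean percentiles of Eip75B and br stayed above 95. With no alternative applied, 3.39% of all 3L windows of the length of Eip75B were in the top 5% in both replicates. The share was 3.73% for the length of Eip74EF and 3.52% for that of br on X. Since the members were proposed with these lists in view, nothing is read from the count of members in the top 5%. Windows 1 kb apart are nearly identical, and only 204, 377 and 194 windows of these lengths fit on the arms without overlap.

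**Figure D3:**
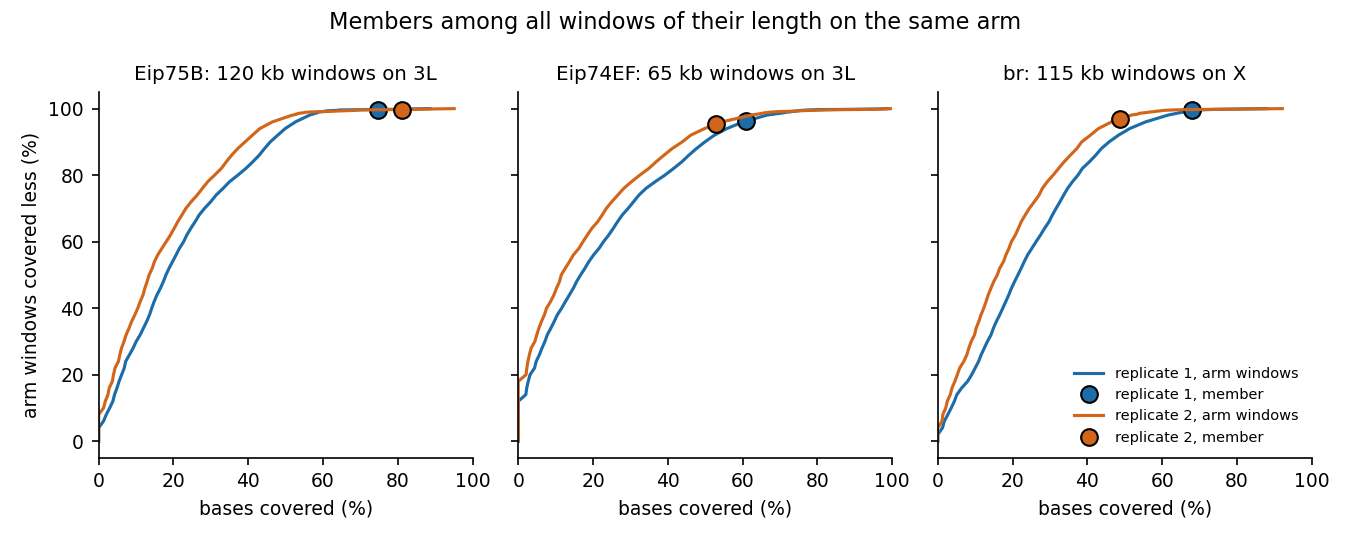
Share of arm windows (%, vertical axis) whose covered share is below the value on the horizontal axis (%), for windows of the length of each member, with 1 curve for each replicate and points for the members. The Eip75B points sit at 99.7% in both replicates, br at 99.5% and 97.0%, and Eip74EF at 96.3% and 95.5%.

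Within the Eip75B window the mark was concentrated on the left. Of 3 equal parts of the window, the first was covered over 99.2% ± 0.2 and the second over 95.8% ± 1.4, while the last was covered over 38.8% ± 11.7 (SD, n = 2). The widest region of each list lay here and was also the widest region of the whole list. It ran from 17955172 to 18005245 in replicate 1 (50.1 kb, score 0.97), from 17955284 to 18012930 in replicate 2 (57.6 kb, score 0.87) and from 17955115 to 18033384 in the whole-series list (78.3 kb, score 0.82). It held 55.8% of the covered bases of the window in replicate 1 and 59.3% in replicate 2.

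A short gap separated the widest region from its left neighbour at the edge of the window. In replicate 1 that neighbour ran from 17946041 to 17954796 (8.76 kb) and had a score of 1.18, the highest in the window and the 6th highest of 1600 regions on 3L. In replicate 2 it ran from 17946908 to 17954999 (8.09 kb) with a score of 0.85, the 27th highest of 1293. Of the regions of like width on 3L, from 0.5 to 2 times its own, 98.4% scored lower in replicate 1 and 95.7% in replicate 2. Joined across gaps of up to 1 kb and over both replicates, the block reached from 17916088 to 18019322, a length of 103.2 kb, and thus began 33.9 kb before the window. Each replicate alone left gaps of more than 1 kb inside it, so neither held the block as 1 joined stretch. Replicate 1 covered 91.4% of it and replicate 2 covered 96.8%. Their outermost regions inside it differed by 183 bp at the left end and by 111 bp at the right end.

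To the right of this block the mean scores were lower in both replicates. Weighted by length, the mean score of the block was 0.89 in replicate 1 and 0.79 in replicate 2. A second block from 18020328 to 18033612 had mean scores of 0.57 and 0.66. In the whole-series list nearly all of this second block lay inside the widest region. The next, from 18035287 to 18040907, was covered over 55.6% in replicate 1 and in full in replicate 2. An 8.07 kb stretch from 18041465 to 18049537 held no region in any of the 3 lists. Beyond it a region of 6.66 kb in replicate 1 and 7.41 kb in replicate 2 had scores of 0.71 in both, with right ends at 18056973 and 18056945. The last region of replicate 2, from 18066804 to 18069016, had no counterpart in replicate 1.

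The Eip74EF window had the opposite layout, marked at both ends and sparse in the middle. Its 3 equal parts were covered over 64.3% ± 5.3, 27.3% ± 9.3 and 79.4% ± 2.4 (SD, n = 2). No region there reached 10 kb in any list. The widest was 5.92 kb in replicate 1, from 17614616 to 17620536, and 7.11 kb in replicate 2, from 17605359 to 17612465. The highest score belonged to the same place in all 3 lists. It was 0.92 in replicate 1 from 17563951 to 17569572, 0.77 in replicate 2 from 17563813 to 17569252 and 0.81 in the whole-series list from 17563821 to 17569466. A neighbouring region from 17557633 to 17563088 in replicate 1 scored 0.87, and from 17557642 to 17563251 in replicate 2 scored 0.69.

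The replicates differed at several places in the Eip74EF window. Regions from 17571136 to 17573079, from 17579940 to 17583692 and from 17587179 to 17588595 were found in replicate 1 and not in replicate 2. Replicate 2 covered 0.23% of a further one, from 17600240 to 17602012. A region from 17576416 to 17577835 was found in replicate 2 and not in replicate 1. An 8.08 kb stretch from 17589037 to 17597117 held no region in any list. Towards the right end both replicates stopped within 98 bp of each other, at 17612563 and 17612465, and began again after about the same gap, at 17614616 and 17614745.

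The br window held 10 separate blocks in place of 1 dominant block, the widest being 31.3 kb and 28.5 kb. Of the 10, 8 were found in both replicates, the last of these through replicate 2 regions beyond the window. The 3 equal parts of the br window were covered over 59.8% ± 11.7, 47.3% ± 19.4 and 68.1% ± 9.4 (SD, n = 2). The widest region of replicate 1 ran from 1529140 to 1546289 (17.2 kb, score 0.87, the 7th widest on X), and that of replicate 2 from 1544106 to 1557346 (13.2 kb, score 0.99, the 7th highest score on X). In the whole-series list a single region from 1528719 to 1558294 spanned both (29.6 kb, score 0.86). In the block joined over both replicates at this place, the outermost regions of the replicates began 152 bp apart and ended 119 bp apart. Replicate 2 alone left a gap of more than 1 kb inside it, between 1541986 and 1544106.

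Another br region had a high score for its width. From 1517330 to 1522630 in replicate 1 (5.30 kb) the score was 1.12, the 11th highest of 1644 regions on X, and 98.9% of X regions of like width scored lower. In replicate 2 the same place, from 1517153 to 1522548, had a score of 0.78, and 71.6% of regions of like width scored lower. In the whole-series list it scored 0.93, the highest in the window, and 98.7% of regions of like width scored lower. Replicate 2 thus ranked this place lower than replicate 1 did.

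The difference between the replicates at br came mainly from the stretch of 31.3 kb from 1472699 to 1503992. Replicate 1 covered 91.0% of it with 4 regions of up to 10.8 kb, and replicate 2 covered 50.1% with 6 regions of up to 4.41 kb. All but 2.30 kb of what replicate 2 marked in the window was also marked in replicate 1, whereas 24.3 kb was marked in replicate 1 alone. At Eip75B the balance was the other way, with 0.43 kb in replicate 1 alone and 7.97 kb in replicate 2 alone. At Eip74EF, 10.01 kb was in replicate 1 alone and 4.83 kb in replicate 2 alone. No common excess of 1 replicate therefore ran through the members, although replicate 1 covered more of both arms (21.4% against 17.4% on 3L, and 23.7% against 18.5% on X).

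Agreement between the replicates was highest at Eip75B. There the bases marked in both were 91.4% of those marked in either, against 58.7% over arm 3L and 60.0% in its flanks. At Eip74EF this share was 66.6%, below the 82.9% of its own flanks. At br it was 67.0%, against 53.8% over X and 30.1% in its flanks. A high share follows in part from high coverage, so these values are not separate evidence on the members. Over the 3 windows, 32 of 38 regions of replicate 1 overlapped a region of replicate 2 by at least 1 bp. In turn, 29 of 31 regions of replicate 2 overlapped one of replicate 1. Overlap past a window edge was counted, and for the br region of replicate 1 from 1569965 to 1574037 it lay only there. When 50% of each region had to overlap, 20 regions of each replicate were shared. Neither these counts nor those of blocks that follow have a value over the whole arm beside them. Nothing about the members is therefore read from them. Joined within 1 kb over both replicates together, the windows held 21 blocks, of which 16 were found in both replicates. The br block from 1568024 to 1588018 is among the 16, though replicate 2 met it only beyond the window. At the 32 ends of these shared blocks, the outermost regions of the 2 replicates differed by a median of 209.5 bp. The largest difference was 6643 bp, at the right end of the 31.3 kb stretch of br.

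The bases inside regions scored higher than those of the arm at Eip75B and, by less, at br. Weighted by length, the mean score at Eip75B was 0.86 in replicate 1 and 0.80 in replicate 2, which exceeded the mean of 3L by 0.20 and 0.18. At br it was 0.81 and 0.79, above the mean of X by 0.068 and 0.094. At Eip74EF it was 0.65 and 0.63, and exceeded 3L by 0.0027 and 0.016. The scale of the deposited scores is not stated, so these differences have no unit and were not turned into folds. Scores rise with width in these lists, and Eip75B held the widest region.

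Set against regions of like width on their arm, most scores of the members were ordinary. The widest region of Eip75B was left out of this comparison, since fewer than 10 regions of 3L were of like width. In replicate 1, 4 of 9 regions at Eip75B, 5 of 13 at Eip74EF and 7 of 15 at br scored above the median of such regions. In replicate 2 these counts were 6 of 7, 6 of 9 and 10 of 14. The median region of the Eip75B window scored above 21.4% of regions of like width in replicate 1 and above 66.8% in replicate 2. For Eip74EF these values were 34.2% and 52.8%, and for br 42.9% and 65.4%.

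**Figure D4:**
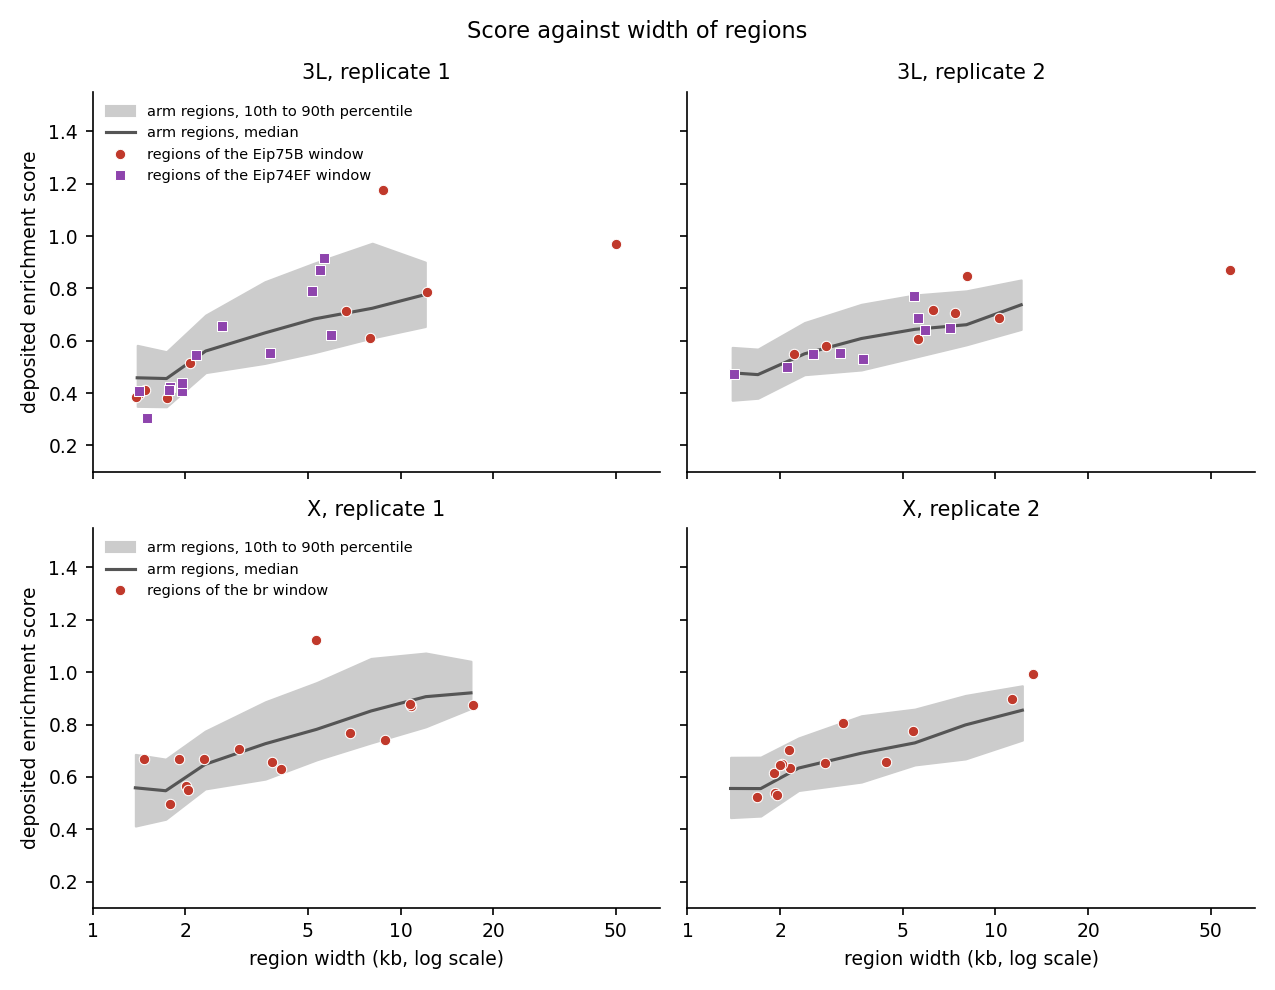
Deposited enrichment score of each region of the windows (points) against its width (kb, log scale), by arm and replicate, with the median (line) and the 10th to 90th percentile (band) of all regions of that arm in classes of width that hold at least 10 regions. Of 69 points, 60 lie within the percentiles of their class and 2 below; the 5 above are the region at the left edge of the Eip75B window in both replicates (1.18 and 0.85), Eip74EF at 0.92 and br at 1.12 in replicate 1, and br at 0.99 in replicate 2, while the widest Eip75B region of each replicate (0.97 and 0.87) has no class to be set against.

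The whole-series list covered some bases of the windows that no replicate had marked. It covered 5.44 kb at Eip75B, 5.46 kb at Eip74EF and 6.06 kb at br that neither replicate covered, or 5.30%, 11.3% and 7.04% of its own bases there. Of its 30 regions in the windows, 19 overlapped both replicates and 3 overlapped neither, which were 2 at Eip75B and 1 at Eip74EF. Those 3 were 1006 to 1845 bp wide and scored 0.29 to 0.36. Neither these shares nor these counts have a value over the arm beside them, so nothing about the members is read from them. At Eip74EF the 3 regions of the whole-series list that replicate 1 alone supported had a median score of 0.26, against 0.59 for the 7 supported by both. At br the corresponding values were 0.31 for 3 regions and 0.56 for 8. The regions supported by replicate 1 alone were also narrower, and scores rise with width in these lists. Their median widths were 1856 against 6081 bp at Eip74EF and 1916 against 5078 bp at br. Bases in no list made up 14.04% of the Eip75B window, 23.2% of the Eip74EF window and 24.8% of the br window.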

How the data were processed

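Per the labels, larval chromatin was fixed with formaldehyde, sonicated and precipitated. The submitters' processing notes name Bowtie 0.12.7 without its role, and the file headers name FlyBase release 5. How regions were called, at what threshold and with which use of the input, is not given in the sources used here. Each region carries an enrichment score as deposited by the authors. Its scale is not stated, and the depth of the libraries is unknown, so no counting error can be given.

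The members and the rule for the regions named (the widest and the highest-scoring region of each list in a window, and the first and last covered bases) were chosen with earlier results of these data known. Regions named beyond that rule, which mark gaps, neighbours and differences between replicates, were picked after their values were seen. Regions were used as deposited, apart from 3 entries of the whole-series list that are named as depletion, which were dropped and lie outside the windows, and 3 regions trimmed to the end of their scaffold. Covered shares are bases inside regions divided by window length. Flanks were 100 kb on each side. Windows of the same length were moved in 1 kb steps along the arm. Values are means ± SD over 2 ChIP replicates, and no p-value is given. Where nothing says that samples came from separate collections, this spread may be technical. The scan and sums were tested on simulated data. Alternatives were the whole-series list, regions at or above the median score, regions joined within 1 kb, windows widened, narrowed or moved by 10 kb, 50 kb flanks, 10 kb steps, windows that overlap no member, and each replicate alone. Other genes of the ecdysone pathway and the sequences of regions were not analysed here, since they need release 5 positions or sequence. Python 3.11.15, numpy 2.4.6, pandas 2.3.3 and matplotlib 3.10.9 were used.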

Additional observations from a re-analysis of the deposited data

How the results depend on the processing

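Of the results recomputed, only the excesses over the flanks and the score differences from the arm could change sign. Among these, the excess of Eip74EF over its flanks was the only one to do so. It was -0.54 percentage points with the window narrowed by 10 kb on each side. No paired analysis was possible because the input samples that share replicate numbers with the ChIP samples have no file here. Input, depth and unmappable bases could not be assessed.

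With the whole-series list, the covered shares were 85.6% for Eip75B, 74.6% for Eip74EF and 74.8% for br, the percentiles among arm windows were 99.6 for Eip75B and 95.1 for Eip74EF, and the excesses over the flanks were 40.0 and 24.7 points. That list covers more of the arms and the flanks. With only the higher-scoring regions of each list kept (the median and above), Eip75B had a percentile of 99.7 and an excess of 56.4 points. Eip74EF then had a covered share of 36.0%, a percentile of 90.6 and an excess of 4.03 points. Joining regions within 1 kb gave percentiles of 99.7 for Eip75B and 96.6 for Eip74EF. Widened windows gave Eip75B 72.8%, percentile 99.7 and 48.4 points, and Eip74EF 48.8%, percentile 92.7 and 10.9 points. Narrowed windows gave Eip75B 82.7% and percentile 99.8, Eip74EF 46.2% and percentile 87.6, and br an excess of 50.8 points. Windows moved 10 kb to the left, an alternative chosen after seeing the data, gave Eip75B 84.0%, percentile 99.8 and 60.9 points, and Eip74EF 48.4%, percentile 91.3 and 5.51 points. Moved 10 kb to the right, they gave Eip75B 69.9%, percentile 99.6 and 38.2 points, Eip74EF 47.4%, percentile 90.4 and 5.65 points, and br 50.9 points. For Eip75B, 10 kb steps gave a percentile of 99.8, windows that overlap no member 100, and 50 kb flanks an excess of 37.2 points.

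With each replicate alone, covered shares ranged from 74.8% to 81.1% for Eip75B, from 53.0% to 61.0% for Eip74EF and from 48.8% to 67.9% for br. Percentiles were 99.7 in both for Eip75B, 95.5 to 96.3 for Eip74EF and 97.0 to 99.5 for br. The excess over the flanks was 49.5 to 54.7, 13.5 to 21.3 and 41.6 to 48.3 points.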

Other observations

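Scores repeat exactly within a list, which bears on how finely single regions can be ranked. In replicate 1, 32.2% of regions share their score with at least 1 other region of the list, and in replicate 2, 33.7%. In the br window, 3 regions of replicate 1 have the identical score of 0.67 (1457485 to 1459783, 1492247 to 1494158 and 1568024 to 1569488), which 54 regions of that list carry. Their widths run from 1465 to 2299 bp. At Eip74EF, the region of replicate 2 from 17584647 to 17586752 shares its score of 0.50 with 17 regions, itself included.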
